A study of Mus musculus with 18 samples.

Results

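The transcriptional response of 4T1R2 cells to the HSP90 inhibitor 17-DMAG was measured by comparing the 3 RNA-seq libraries of treated 4T1R2 cells with the 3 libraries of untreated 4T1R2 cells, 6 of the 18 libraries in the series, as the sample labels assign them. 4T1 is a mouse breast carcinoma line (strain BALB/cfC3H, genotype given as wild type), and 4T1R2 is 1 of a pair of resistant populations, with 4T1R1, that were derived separately from it by repeated exposure to 17-DMAG and regrowth of the survivors. 4T1R2 is therefore a selected population and not a genetically engineered line, and both its treated and its untreated libraries carry that history. Treated cells received 1.5 μM 17-DMAG, and the untreated cells received none. The sample records put the exposure at 48 h, whereas the text of the series says that RNA was taken 2 h after treatment, and the data files do not settle which holds. The sources also differ on the dose and length of the selecting exposures. RNA came from subconfluent cultures, and the replicates are described as biological, with no further account of how the cultures were kept apart, so the p-values measure the spread between these libraries.

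HSP90 is an abundant cytosolic chaperone that completes the folding of many kinases, receptors and transcription factors, and 17-DMAG is a geldanamycin derivative that occupies its ATP pocket. HSP90 also restrains heat shock factor 1 (HSF1), and its inhibition is known to free HSF1 to induce chaperone genes. Those genes include the inducible HSP70, the J-domain proteins that feed clients to it, HSP90 itself and its co-chaperones, so that their mRNAs are a standard readout of target engagement in tumour cells. Loss of client kinases, in turn, is known to lower transcripts that depend on growth factor and NF-κB signalling.

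The 6 libraries held between 23354461 and 35853025 counts in genes. The 3 treated libraries were all deeper than the 3 untreated ones, with a ratio of mean totals of 1.27. Pairwise correlations of log counts were 0.9968 to 0.9969 within the untreated group and 0.997 to 0.9976 within the treated group, against 0.9944 to 0.9955 between the groups. The ribosomal RNA precursor Rn45s took 10.9 to 11.8% of the counts in untreated and 10.6 to 13.1% in treated libraries. All 12 luminal epithelial markers were detected, with a summed level of 63030 to 64480 normalized counts in untreated and 64530 to 66160 in treated libraries. The 8 basal markers summed to 356 to 469 and 407 to 434 normalized counts, with Krt5 at 0. The 10 fibroblast markers summed to 997 to 1095 in untreated and 864 to 997 in treated libraries, almost all of it Pdgfra, with Col3a1 and Lum at 0. Leukocyte markers (10 genes) summed to 912 to 977 and 789 to 849, mainly Cd14 and Cd68, and 7 endothelial markers to at most 22.2. The part of these shifts in the results was not tested. Replicates 1 and 2 of treated parental 4T1 cells differed by less than the sampling noise of other replicate pairs (chi-square of 1.10 per gene against 2.04 or more), and their mean was counted as 1 sample wherever 4T1 is used below.

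Treatment changed many transcripts in 4T1R2 by a small amount and a few chaperone transcripts by a large one. Of 13507 genes tested, 835 rose (6.18%) and 588 fell (4.35%) at an adjusted p under 0.05 by edgeR's quasi-likelihood test with Benjamini-Hochberg adjustment over all of them, n = 3 per group. The median rise was 0.19 and the median fall was -0.23 on the log2 scale. Of the genes that rose, 612 rose by less than 1.2-fold, and of those that fell, 353 fell by less than 1.2-fold. At least a 2-fold change was fitted for 16 genes in each direction, but among genes with 100 or more normalized counts in the higher group only 7 rises and 0 falls reached it. Those 7 were Hspa1b, Hspa8, Prune2, Hsph1, Dnaja1, Ahsa2 and Dnajb1, and all but Prune2 encode chaperones or co-chaperones. Without regard to any test, the 3 treated libraries lay above all 3 untreated ones for 1884 genes (13.9%) and below them for 1689 genes (12.5%), which is the background for every statement below that groups did not overlap. The 15 largest rises and 15 largest falls named below were picked among genes without overlap, so that for them it is not a result. As RNA was pooled over each culture, fewer cells that express a gene and less RNA per cell cannot be told apart.

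The balance of rises and falls depended on the scaling. With TMM scaling, which assumes that most genes do not change, 58.7% of the changed genes had risen. Scaling by total counts alone moved the median of all genes from -0.002 to -0.048 and gave 365 rises against 1146 falls, a share of 24.2% risen. The scalings differ by about this shift for every gene, so that only values closer to 0 than it change sign. When the 6 libraries were thinned to the smallest of them, 777 genes rose and 537 fell, and 383 rises and 212 falls passed the threshold whichever of the 6 libraries was left out. The count of falls was 376 without untreated replicate 2 and 367 without 17-DMAG replicate 1.

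**Figure D1:**
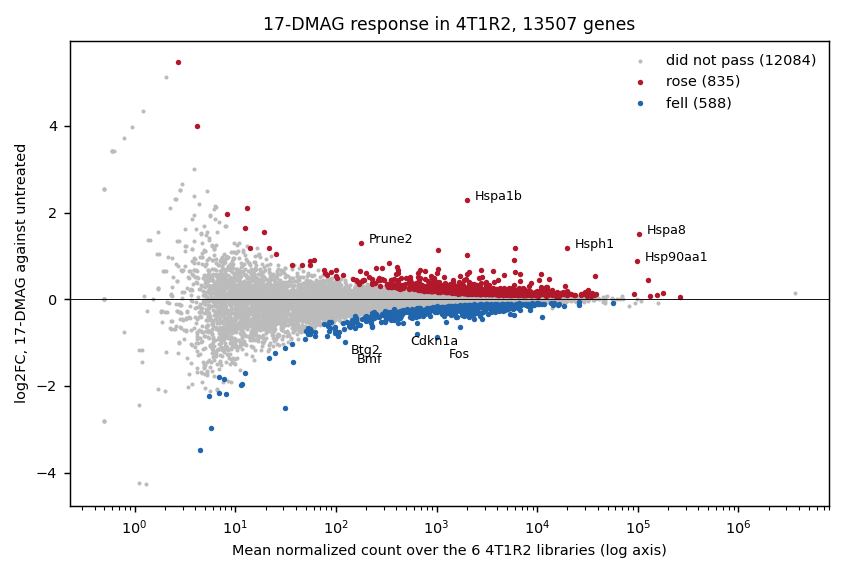
Log2 fold change (17-DMAG over untreated, vertical axis) of every gene tested in 4T1R2 against its mean normalized count (horizontal axis, log scale), with genes past an adjusted p of 0.05 coloured. The 835 rises and 588 falls sit close to 0, and the few points far above the rest at high counts are chaperone genes led by Hspa1b (2.29) and Hspa8 (1.51).

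Chaperone and co-chaperone genes held the largest rises. Of 113 tested members of 5 lists (HSP70 and HSP110, J-domain proteins, HSP90 with its co-chaperones, small HSPs with BAG proteins, and the chaperonin with prefoldin), 40 rose and 1, Sqstm1, fell. The 40 had a median log2FC of 0.35, against 0.19 for all 835 rises. When a change of more than 1.2-fold was required in the test itself (edgeR's glmTreat), 49 genes rose in the whole table, and 19 of them were chaperone-list genes.

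Upstream sequence of these genes is shown because HSF1 is known to bind inverted repeats of the pentamer NGAAN, in which neighbouring units lie head to head or tail to tail. Promoter windows from RefSeq (GRCm38.p6, 250 bases before to 50 after each annotated start) were searched for a pair of neighbouring units (GAANNTTC or TTCNNGAA, each its own reverse complement so that both strands are covered) and for a run of 3 alternating units, GAANNTTCNNGAA or TTCNNGAANNTTC. Every run of 3 also holds a pair. Of the 10095 tested genes with a window, 14% held a pair and 0.614% a run of 3. Of the 40 chaperone genes that rose, 33 had a window, and 14 of the 33 (42.4%) held a pair and 2 (6.06%) a run of 3. Of the 73 chaperone-list genes that did not rise, 59 had a window, and 11 (18.6%) held a pair. A gene with several windows was counted once, as a match if any window held one. Among all 835 rises the share with a pair was 15.4% (651 genes with a window). Among all 588 falls it was 13.9% (438 genes with a window), and both were close to that of all genes. A run of 3 was held by 10 of the 651 genes that rose (1.54%) and 0 of the 438 that fell. Hspd1 and Hspe1 are both among the 10 and share the same stretch. Of the 15 largest rises among genes with 100 or more normalized counts and no overlap, 13 had a window. Of these 13, 4 held a pair. Hspa8, Hsp90aa1 and Hsp90ab1 had no window and were not searched. The genes printed were picked from those with a match. The stretches below are those of 3 chaperone or co-chaperone genes with large rises, Hspa1b, Dnaja1 and Chordc1, of Hspe1, whose match lies between its own start and 1 of the annotated starts of Hspd1, and of Kctd18, a gene outside the chaperone lists that holds a run of 3 and rose from 216, 150 and 210 to 280, 278 and 253 normalized counts (log2FC 0.48 ± 0.11 SE, adjusted p = 0.00265; 0.34 without untreated replicate 2, adjusted p = 0.0506). Capitals mark the match, with overlapping runs of units joined into 1 stretch, and each stretch is written 5′ to 3′ on the strand of the gene.
Hspa1b, chr17:34959315-34959362, minus strand: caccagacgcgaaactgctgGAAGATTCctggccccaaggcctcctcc
Dnaja1, chr4:40722324-40722371, plus strand: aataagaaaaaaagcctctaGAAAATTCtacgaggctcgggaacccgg
Chordc1, chr9:18292259-18292288, plus strand: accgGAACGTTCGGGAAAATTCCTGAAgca
Hspe1, chr1:55088039-55088096, plus strand: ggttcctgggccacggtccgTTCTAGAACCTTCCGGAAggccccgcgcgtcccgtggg
Kctd18, chr1:57970205-57970262, minus strand: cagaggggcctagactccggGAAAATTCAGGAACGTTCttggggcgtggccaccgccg
The match starts 104 bases before the annotated start in Hspa1b, 124 before it in Dnaja1, 89 before it in Hspe1 and 158 before it in Kctd18, and in Chordc1 it spans the start, from -4 to 19. A match of these letters is a description of the window and not evidence of a bound site.

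HSP70 genes showed the widest range, from the largest rise among genes with 100 or more normalized counts to genes with no detectable change. Hspa1b (17:34956429-34959238, GRCm38.p6), the stress-inducible HSP70, had 649, 682 and 695 normalized counts in the untreated libraries and 3526, 3190 and 3191 in the treated ones. The groups were far apart, a 4.90-fold rise (log2FC 2.29 ± 0.047 SE, adjusted p = 6.17e-33). Hspa8 (9:40801276-40805202), which encodes the constitutive HSC70, went from 52830, 51730 and 54410 to 156600, 147700 and 147500 (log2FC 1.51 ± 0.024, adjusted p = 7.17e-37). Hsph1, the HSP110 that exchanges nucleotide on HSP70, went from 11500, 12140 and 12540 to 28430, 27530 and 26060 (1.18 ± 0.032, adjusted p = 9.97e-29). Hspa4l, a relative of HSP110, rose by less, from 7482, 7540 and 7406 to 9915, 9764 and 9589 (0.38 ± 0.032, adjusted p = 5.47e-12). In these 4 genes every treated library lay above every untreated one. Hspa1a is a near-identical copy of Hspa1b, and the split of reads between them is uncertain. It was listed at 5.75, 3.91 and 7.02 normalized counts untreated and 16.7, 11.2 and 4.76 treated, with overlapping groups (0.94 ± 0.60, adjusted p = 0.359). In all, 5 of 11 tested HSP70 and HSP110 genes rose (45.5%, against 6.18% of all genes) and 0 fell.

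J-domain proteins deliver clients to HSP70 and stimulate its ATPase. Of the 37 tested, 9 rose (24.3%, against 6.18% of all genes), with 0 falls and a list median of 0.023. The rise was concentrated in members of the DNAJA and DNAJB classes. Dnaja1 had 3634, 3725 and 3795 normalized counts untreated and 8692, 8658 and 7817 treated (log2FC 1.18 ± 0.038 SE, adjusted p = 8.82e-26). Dnajb1, an HSP40 and a widely used HSF1 target, went from 1346, 1384 and 1231 to 2899, 2533 and 2559 (1.01 ± 0.049, adjusted p = 1.64e-19). Neither gene's groups overlapped. Smaller rises were those of Dnajb2 (0.62 ± 0.077) and Dnajb4 (0.60 ± 0.070), at adjusted p-values of 1.65e-07 and 3.83e-08. Under total-count scaling, 6 of the 9 calls passed.

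The targets of the drug rose as well. Of 29 tested HSP90 isoforms and co-chaperones, 12 rose (41.4%, against 6.18% of all genes) and 0 fell, with a list median of 0.061. Hsp90aa1, the inducible cytosolic HSP90, went from 70410, 68270 and 69750 to 131900, 128900 and 122500 normalized counts (log2FC 0.88 ± 0.025 SE, adjusted p = 8.26e-28). Hsp90ab1, the constitutive isoform, rose less in relative terms, from 109600, 107800 and 107100 to 147100, 146300 and 146100 (0.44 ± 0.020, adjusted p = 1.05e-20). The 6 libraries of each gene formed separate groups with a spread of a few percent. Ahsa1 and Ahsa2, whose family activates the HSP90 ATPase, rose by 0.63 ± 0.030 and 1.15 ± 0.058. Ahsa2 stood at 628, 635 and 662 untreated and at 1508, 1361 and 1397 treated (adjusted p = 5.74e-19). Chordc1, a CHORD-domain co-chaperone of HSP90, went from 3972, 4058 and 4084 to 8006, 7842 and 7033 (0.92 ± 0.041, adjusted p = 1.05e-20). The cytosolic isoforms and these cofactors thus rose together with HSP70.

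**Figure D2:**
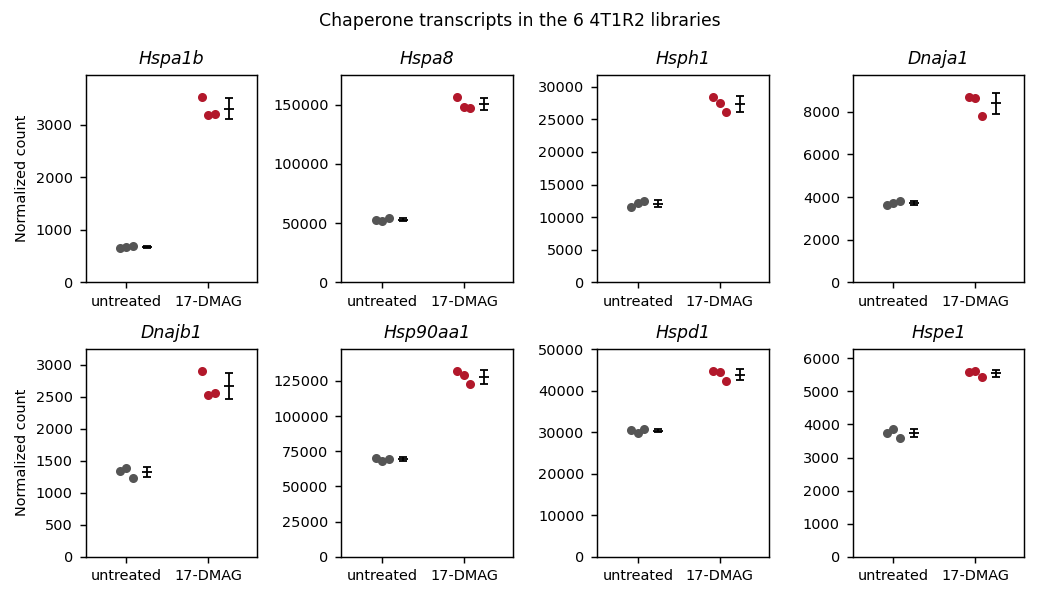
Normalized counts (vertical axes from 0) of 8 chaperone genes in each untreated and each 17-DMAG library of 4T1R2, with bars at the mean and error bars of 1 SD (n = 3). In every panel the 3 treated libraries lie above the 3 untreated ones, by the widest margin in Hspa1b (649 to 695 against 3190 to 3526). All but Hspd1 and Hspe1 are among the 15 largest rises, for which this separation was required.

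Small heat shock proteins, BAG nucleotide exchange factors and ubiquitin genes were mixed. Of 20 tested, 6 rose (30%, against 6.18% of all genes) and 1 fell (5%, near 4.35%), and the median was 0.055. Hspb8, which works with BAG3 in chaperone-assisted autophagy, rose from 1671, 1698 and 1628 to 2705, 2475 and 2540 normalized counts (log2FC 0.63 ± 0.042 SE, adjusted p = 4.54e-15), and Bag3 itself from 2104, 1972 and 2168 to 2745, 2527 and 2718 (0.35 ± 0.043, adjusted p = 9.39e-08). Serpinh1, the collagen chaperone HSP47 of the endoplasmic reticulum and a known HSF1 target, rose by 0.59 ± 0.030 (adjusted p = 9.10e-19), and Bag2 by 0.35 ± 0.053 (adjusted p = 9.12e-06). All 3 treated libraries of Bag3 and Hspb8 lay above the untreated ones. The single fall was that of Sqstm1, the autophagy receptor p62 (-0.12 ± 0.029, adjusted p = 0.00336), which missed the threshold without untreated replicate 1 (-0.088, adjusted p = 0.0713).

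Part of the cytosolic chaperonin list rose by a small amount. Of 16 chaperonin and prefoldin genes tested, 8 rose (50%, against 6.18% of all genes), 0 fell and 8 did not pass, with values between 0.034 and 0.21. The 8 that rose were subunits of the CCT ring, which folds actin and tubulin. Cct7 rose most, from 12880, 12880 and 12870 normalized counts to 14920, 14800 and 14970 (log2FC 0.21 ± 0.026 SE, adjusted p = 1.70e-07), and Cct6a rose by 0.17 ± 0.029. With total-count scaling 4 of the 8 calls passed, and none passed the 1.2-fold requirement. In mitochondria the matrix chaperonin pair stood out from the rest of its list, which had a median of -0.002. Of the 15 tested, 4 rose (26.7%, against 6.18% of all genes) and 1 fell (6.67%, near 4.35%). The rises numbered 2 without untreated replicate 2. Hspd1 (HSP60) went from 30530, 29940 and 30770 to 44740, 44460 and 42430 (0.53 ± 0.026, adjusted p = 2.78e-19). Its partner Hspe1 (HSP10), which starts next to it on chromosome 1 in the opposite orientation, went from 3755, 3848 and 3597 to 5589, 5611 and 5430 (0.57 ± 0.035, adjusted p = 2.23e-16). The stretch in capitals printed for Hspe1 above lies between the start of Hspe1 and 1 of the annotated starts of Hspd1. Each of the other calls in this list was lost with some library left out. Mitochondrial HSP70, Hspa9, rose by 0.090 ± 0.024 (adjusted p = 0.00983) but missed the threshold without untreated replicate 2 (0.081, adjusted p = 0.0663) or 17-DMAG replicate 1 (0.084, adjusted p = 0.0582).

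None of the 5 tested heat shock factors and regulators passed edgeR's test, 0 had an unadjusted p under 0.05, and DESeq2 called 0. Hsf1 had 1649, 1706 and 1675 normalized counts untreated and 1690, 1633 and 1727 treated (log2FC 0.007 ± 0.049 SE, adjusted p = 0.957). The groups overlapped, and the value turned negative with total-count scaling (-0.040). HSF1 is regulated mainly at the protein level, which these data do not measure.

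Genes of the secretory pathway's folding response changed little. Of 27 endoplasmic reticulum chaperone and unfolded protein response genes, 4 rose (14.8%, against 6.18% of all genes) and 1 fell (3.7%, near 4.35%). Their median was 0.035. Hspa5 (BiP), the main HSP70 of the endoplasmic reticulum, rose from 27290, 28660 and 29520 to 32690, 31570 and 31450 normalized counts (log2FC 0.16 ± 0.029 SE, adjusted p = 0.000122). Hsp90b1 (GRP94), the HSP90 of that compartment and itself a target of geldanamycins, rose by 0.21 ± 0.031 (adjusted p = 7.33e-06). In both, the treated libraries lay above the untreated ones. With total-count scaling the same list held 2 rises and 5 falls, so no direction is stated for it.

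Some genes of the integrated stress response rose by small amounts. This pathway uses ATF4 to induce amino acid synthesis and transport, and 11 of 26 tested members rose (42.3%, against 6.18% of all genes), 1 fell and 14 did not pass, with a median of 0.12. Chac1, a glutathione-degrading ATF4 target, went from 458, 486 and 519 to 682, 620 and 620 normalized counts (log2FC 0.40 ± 0.073 SE, adjusted p = 0.00017). Atf5, a related transcription factor, went from 964, 992 and 976 to 1296, 1160 and 1220 (0.33 ± 0.058, adjusted p = 9.91e-05). Both groups stayed apart in these genes. Mthfd2, an enzyme of mitochondrial one-carbon metabolism, rose by 0.30 ± 0.037 and Asns, asparagine synthetase, by 0.27 ± 0.038. The fall was that of Slc7a11, the cystine transporter, from 6557, 7055 and 7045 to 6276, 6177 and 5855 (-0.17 ± 0.041, adjusted p = 0.00379). Of the 37 proteasome subunits, 3 rose (Psmd7, Psmd1 and Psma3; 8.11%, near the 6.18% of all genes) and 0 fell, with a median of 0.049. Only Psmd7 (0.14 ± 0.030, adjusted p = 0.0012) passed whichever library was left out, and under total-count scaling 0 passed. Psma3 (0.10 ± 0.032, adjusted p = 0.0347) fell short at 0.083 without 17-DMAG replicate 1 (adjusted p = 0.182), at 0.10 without 17-DMAG replicate 2 (0.0717), at 0.10 without untreated replicate 2 (0.0856) and at 0.090 without untreated replicate 3 (0.129). Psmd1 (0.089 ± 0.028, adjusted p = 0.0331) was lost without the same 4 libraries, at 0.091 (0.0815), 0.068 (0.201), 0.092 (0.0802) and 0.079 (0.129).

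Several short-lived transcripts of growth factor signalling fell. Of 30 immediate-early transcription factor genes, 10 fell (33.3%, against 4.35% of all genes) and 1, Mafk, rose, a call that was lost with any of the 6 libraries left out (adjusted p = 0.0568 to 0.187) and with total-count scaling. Fos (12:85473890-85477274), the AP-1 subunit induced within minutes of growth factor stimulation, had 1177, 1338 and 1405 normalized counts untreated and 790, 709 and 651 treated (log2FC -0.86 ± 0.12 SE, adjusted p = 3.19e-06). Jun, its partner, went from 3642, 3779 and 4069 to 3207, 2990 and 3102 (-0.30 ± 0.051, adjusted p = 4.22e-05). In both genes all treated libraries lay below the untreated ones. Jund fell by 0.35 (SE 0.052) and Klf4, a zinc-finger factor of epithelial differentiation, by 0.37 (SE 0.084) on the log2 scale. Egr1, often induced along with Fos, stood at 305, 304 and 342 untreated and 315, 310 and 315 treated, with overlapping groups (-0.016 ± 0.11, adjusted p = 0.955). The value of Fosb (-0.38 ± 0.11, adjusted p = 0.0148) rested on untreated replicates 2 and 3 and 17-DMAG replicate 2, without which its adjusted p was 0.0501, 0.247 and 0.0815.

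Regulators with unstable mRNAs and genes of mRNA decay also held more falls than rises. Of 25 tested, 12 fell (48%, against 4.35% of all genes) and 2 rose (8%, near the 6.18% of all genes), with a median of -0.12. A single rise was called without untreated replicate 1 or 3 or 17-DMAG replicate 1 or 2. Btg2, an antiproliferative partner of the CCR4-NOT deadenylase, had 133, 115 and 157 normalized counts untreated and 75.0, 86.5 and 78.9 treated (log2FC -0.75 ± 0.17 SE, adjusted p = 0.00176). Id2, an inhibitor of basic helix-loop-helix factors, went from 2428, 2076 and 1794 to 1358, 1367 and 1351 (-0.63 ± 0.066, adjusted p = 2.96e-09). The untreated libraries of Id2 were widely spread and the treated ones close together, without overlap. Zc3h12a, the endonuclease Regnase-1 that degrades inflammatory mRNAs, fell by 0.40 (SE 0.060), as did Rhob, a short-lived small GTPase (0.40, SE 0.045). Among 19 MAP kinase feedback genes 3 fell (15.8%) and 2 rose (10.5%), and the falls numbered 1 without untreated replicate 2 or 17-DMAG replicate 2 and 5 with total-count scaling. Dusp1, a MAP kinase phosphatase, fell from 674, 790 and 823 to 515, 539 and 505 (-0.55 ± 0.086, adjusted p = 1.51e-05), while Dusp5, a nuclear ERK phosphatase, rose by 0.40 ± 0.086 (adjusted p = 0.00123) and Spry1, a Sprouty inhibitor of receptor tyrosine kinase signalling, rose from 458, 422 and 454 to 673, 584 and 651 (0.51 ± 0.080, adjusted p = 1.50e-05).

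**Figure D3:**
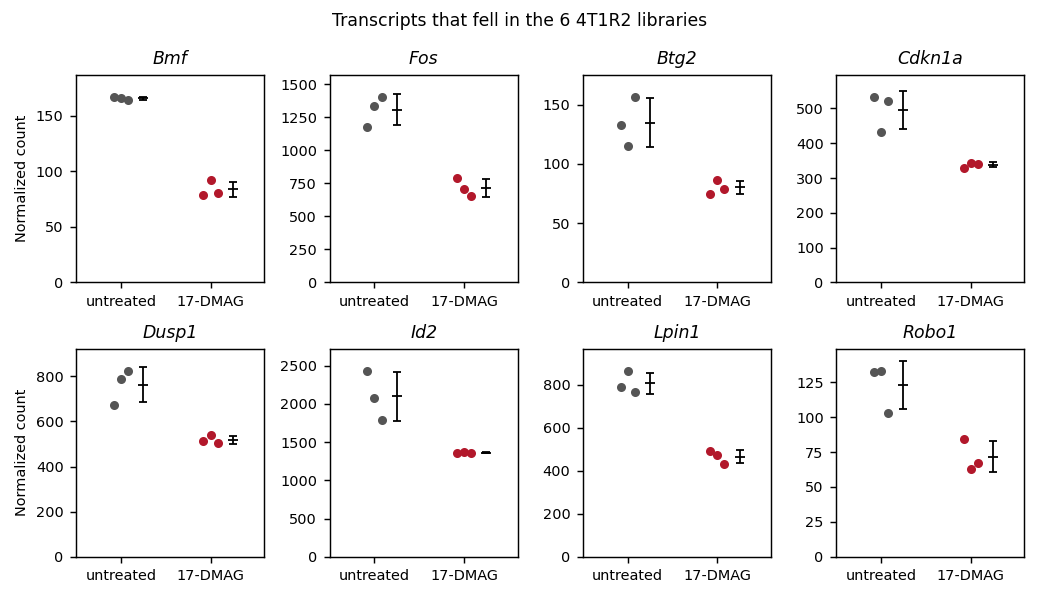
Normalized counts (vertical axes from 0) of 8 genes that fell, Bmf, Fos, Btg2, Cdkn1a, Dusp1, Id2, Lpin1 and Robo1, in each untreated and each 17-DMAG library of 4T1R2, with bars at the mean and error bars of 1 SD (n = 3). The 3 treated libraries lie below the 3 untreated ones in every panel, as in Fos (651 to 790 against 1177 to 1405). All but Cdkn1a and Dusp1 are among the 15 largest falls, for which this separation was required.

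NF-κB subunits and the feedback inhibitors that NF-κB induces fell by small amounts. Of 26 tested, 9 fell (34.6%, against 4.35% of all genes) and 0 rose, and the median was -0.15. Nfkbiz, an atypical IκB that is itself an NF-κB target, had 2686, 2891 and 2884 normalized counts untreated and 2310, 2368 and 2268 treated (log2FC -0.28 ± 0.046 SE, adjusted p = 2.26e-05). Nfkbia (IκBα) went from 2596, 2581 and 2815 to 2344, 2358 and 2433 (-0.16 ± 0.042, adjusted p = 0.00827), a call that was lost without untreated replicate 3 (-0.12, adjusted p = 0.108). In both genes the groups did not overlap. The count of falls was 5 without untreated replicate 2, 4 without untreated replicate 3 and 12 with total-count scaling. Chemokines and cytokines, several of them NF-κB targets, did not share a direction. Of 35 tested, 3 rose (8.57%) and 2 fell (5.71%), near the 6.18% and 4.35% of all genes, with a median of -0.028. The falls numbered 4 without 17-DMAG replicate 3 and 5 with total-count scaling. Cxcl5, a neutrophil chemokine, fell from 12710, 12650 and 12400 to 9348, 10160 and 9111 (-0.40 ± 0.048, adjusted p = 7.55e-08). Cx3cl1 fell by 0.30 (SE 0.044, adjusted p = 6.16e-06). Cxcl1, another neutrophil chemokine, stood at 3353, 3459 and 3905 untreated and 3421, 3588 and 3313 treated, with overlapping groups (-0.053 ± 0.055, adjusted p = 0.623). The interferon-inducible chemokine Cxcl10 rose from 240, 180 and 239 to 330, 394 and 361 (0.71 ± 0.14, adjusted p = 0.000242), and Hbegf, an EGF receptor ligand, rose by 0.34 ± 0.049.

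Several type I interferon-stimulated genes rose, in the same direction as Cxcl10. Of 58 tested, 8 rose and 1 fell, with a median of 0.076, beside 6.18% of all genes rising. Ifit1, which binds foreign 5′ ends of RNA, went from 629, 579 and 572 to 948, 969 and 904 normalized counts (log2FC 0.66 ± 0.088 SE, adjusted p = 7.60e-07). Rsad2, the antiviral enzyme viperin, went from 513, 560 and 554 to 781, 825 and 713 (0.52 ± 0.093, adjusted p = 0.000133). Oasl1, a 2′-5′-oligoadenylate synthetase-like protein, rose by 0.47 ± 0.079 (adjusted p = 4.07e-05). Treated and untreated libraries were apart in all 3 genes, and total-count scaling left 7 rises in the list. The single fall was not called without untreated replicate 1 or 2 or any 17-DMAG replicate.

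Among cell death genes, transcripts of a pair of BH3-only killers fell. Bmf (2:118528757-118549686), which is released from the cytoskeleton to neutralize BCL2, had 167, 166 and 164 normalized counts untreated and 78.8, 91.8 and 80.8 treated, the largest fall among the genes past the threshold with 100 or more and no overlap (log2FC -0.98 ± 0.18 SE, adjusted p = 0.00019). Bcl2l11 (BIM) went from 2974, 3228 and 3018 to 2403, 2400 and 2273 (-0.38 ± 0.040, adjusted p = 2.53e-09). Neither gene's groups overlapped. The third call among 17 tested BCL2 family genes was a rise of Bcl2 itself, the anti-apoptotic founder of the family (0.23 ± 0.060, adjusted p = 0.0097). In this list 5.88% rose, near the 6.18% of all genes, and 11.8% fell, against 4.35%. The Bcl2 call was lost without untreated replicate 3 (0.20, adjusted p = 0.0656) or 17-DMAG replicate 1 (0.18, adjusted p = 0.107). Of 18 p53 targets, 4 fell (22.2%, against 4.35% of all genes) and 2 rose (11.1%, against 6.18%). The rises numbered 1 without 17-DMAG replicate 3. Cdkn1a (17:29090979-29100722), encoding the CDK inhibitor p21, went from 533, 432 and 522 to 330, 344 and 341 (-0.56 ± 0.10, adjusted p = 0.000116). Tnfrsf10b, the death receptor for TRAIL, rose from 2224, 2299 and 2208 to 2750, 2739 and 2648 (0.27 ± 0.040, adjusted p = 3.36e-06).

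Cell cycle genes moved by little. Of 53 DNA replication and G1/S genes, 13 fell and 1 rose, with a median of -0.078, and the share that fell was above the 4.35% of all genes. Orc1, the largest subunit of the origin recognition complex, went from 1304, 1433 and 1312 to 1083, 1141 and 1109 normalized counts (log2FC -0.28 ± 0.057 SE, adjusted p = 0.000612). Dtl, a substrate receptor of the CRL4 ubiquitin ligase, fell by 0.18 (SE 0.040, adjusted p = 0.00195). The count of falls was 8 without untreated replicate 2 or 17-DMAG replicate 1, 6 without 17-DMAG replicate 2 and 24 with total-count scaling. Of 53 mitotic genes, 5 rose (9.43%, beside 6.18% of all genes) and 3 fell (5.66%, beside 4.35%) at a median of 0.003. The rises numbered 2 without untreated replicate 1 and 3 without 17-DMAG replicate 1 or 2. Total-count scaling gave 1 rise and 6 falls, so no direction is stated for this list. Cenpf, a kinetochore protein, rose by 0.29 ± 0.028 (adjusted p = 3.38e-10), and Cdc25c, the phosphatase that activates CDK1, fell by 0.30 (SE 0.064, adjusted p = 0.00092). Among 18 cyclins, CDK inhibitors and Myc partners 3 rose (16.7%, against 6.18% of all genes) and 4 fell (22.2%, against 4.35%). The falls numbered 2 without untreated replicate 1, untreated replicate 2 or 17-DMAG replicate 2. Cyclin D2, Ccnd2, rose from 11640, 11290 and 11100 to 13590, 13680 and 13970 (0.28 ± 0.028, adjusted p = 1.12e-09), and Ccng2, a cyclin linked to growth arrest, fell by 0.41 (SE 0.076, adjusted p = 0.000209). Of 39 replication-dependent histone genes 4 fell (10.3%, against 4.35% of all genes) and 0 rose. The count of falls was 0 without untreated replicate 1 or 17-DMAG replicate 2, 2 without 17-DMAG replicate 1 and 13 without 17-DMAG replicate 3.

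Ribosome biogenesis genes rose by small amounts. Of 40 genes for nucleolar assembly factors and RNA polymerase I, 19 rose and 0 fell, with a median of 0.10, against 6.18% of all genes. Nop56, a core protein of box C/D snoRNPs, went from 11860, 11280 and 11640 to 13360, 13600 and 13640 normalized counts (log2FC 0.22 ± 0.028 SE, adjusted p = 1.40e-07). Rrp1b, a nucleolar ribosomal RNA processing factor, went from 3151, 3139 and 3151 to 3713, 3664 and 3695 (0.23 ± 0.037, adjusted p = 2.23e-05). Gnl3 (nucleostemin) rose by 0.19 ± 0.034. None of the 19 passed the 1.2-fold requirement, 11 rose without untreated replicate 2, and 6 rose with total-count scaling. The 78 ribosomal proteins showed 2 rises (2.56%) and 0 falls, with a median of 0.031. The rises numbered 0 without 17-DMAG replicate 1 or 2 and 1 without untreated replicate 2, and the median was -0.015 with total-count scaling.

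Of 34 tested target genes of YAP-TEAD and SRF, factors that respond to the cytoskeleton, 10 rose (29.4%, beside 6.18% of all genes) and 1 fell, with a median of 0.069. Ankrd1, a standard YAP target, went from 2730, 2823 and 2941 to 4267, 4643 and 4396 normalized counts (log2FC 0.65 ± 0.035 SE, adjusted p = 7.50e-18). Amotl2, an angiomotin that binds YAP in turn, went from 2356, 2020 and 2143 to 3083, 3042 and 3072 (0.49 ± 0.046, adjusted p = 1.40e-10). Lats2, the kinase that inactivates YAP and is also on the list of HSP90 client kinases, rose by 0.43 ± 0.044, and Crim1 rose by 0.39 ± 0.036. The fall was that of Cyr61, a matricellular protein and a further YAP target, from 5977, 6217 and 6402 to 5310, 5317 and 5282 (-0.22 ± 0.040, adjusted p = 0.00012). In these 5 genes treated and untreated libraries did not overlap. Of 25 TGF-β pathway genes, 6 fell (24%, against 4.35% of all genes) and 2 rose (8%, near 6.18%). Their median was 0.011, and 14 of the 25 had a positive value. Smad7, the feedback inhibitor of TGF-β receptors, fell from 2773, 2411 and 2477 to 2059, 2006 and 2237 (-0.28 ± 0.047, adjusted p = 3.24e-05), and Skil (SnoN), a SMAD co-repressor, fell by 0.21 (SE 0.038). The largest fall in this list, that of the inhibitory Smad6 (-0.68 ± 0.18, adjusted p = 0.00777), missed the threshold without untreated replicate 1 (-0.59, adjusted p = 0.0611).

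In metabolism, 36 glycolysis and HIF-1 target genes held 7 falls (19.4%, against 4.35% of all genes) and 2 rises, with a median of -0.065. The rises were those of the collagen prolyl 4-hydroxylases P4ha2 (log2FC 0.58 ± 0.096 SE, adjusted p = 3.14e-05) and P4ha1 (0.28 ± 0.039, adjusted p = 1.13e-06). P4ha2 had 296, 303 and 354 normalized counts untreated and 537, 453 and 436 treated. Eno2, an enolase of glycolysis, went from 377, 395 and 370 to 250, 298 and 297 (-0.43 ± 0.094, adjusted p = 0.00142), and Kdm3a, a hypoxia-induced histone demethylase, fell by 0.27 (SE 0.045). Egln3, an oxygen-sensing prolyl hydroxylase, fell by 0.24 (SE 0.040). The list held 4 falls without untreated replicate 1 or 17-DMAG replicate 2 and 13 with total-count scaling. Of 36 cholesterol and fatty acid synthesis genes 1 rose (2.78%) and 2 fell (5.56%, near the 4.35% of all genes). A single fall was called whichever library was left out, 0 rises without untreated replicate 1 or 17-DMAG replicate 1 or 3, and 7 falls with total-count scaling. Among the falls was Insig1, a sterol-responsive brake on this pathway (-0.27 ± 0.058, adjusted p = 0.00132).

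Client kinase mRNAs did not share a direction. Of 49 tested, 7 rose (14.3%, against 6.18% of all genes) and 5 fell (10.2%, against 4.35%), with a median of -0.017. The falls numbered 2 without untreated replicate 2 and 3 without 17-DMAG replicate 1 or 2. Total-count scaling gave 4 rises and 8 falls. Ddr1, a collagen receptor kinase, fell from 1308, 1275 and 1220 to 1016, 1031 and 1025 normalized counts (log2FC -0.31 ± 0.064 SE, adjusted p = 0.000781), and Pim3, a serine/threonine kinase, rose by 0.27 ± 0.046 (adjusted p = 4.56e-05). HSP90 acts on client proteins, and no protein was measured here. Of 14 drug efflux transporter genes 0 passed edgeR's test in either direction, 3 had an unadjusted p under 0.05, and DESeq2 called 0. Abcb1b, 1 of the mouse P-glycoprotein genes, stood at 65190, 65440 and 66820 untreated and 65710, 66100 and 65550 treated (-0.001 ± 0.023, adjusted p = 0.992). NRF2 pathway genes, which defend against oxidants, showed 3 falls (9.68%, against 4.35% of all genes) and 0 rises among 31. The falls numbered 1 without 17-DMAG replicate 1 and 8 with total-count scaling. Nfe2l2, encoding NRF2, fell by 0.20 (SE 0.040, adjusted p = 0.000513). Nqo1, the quinone reductase that reduces benzoquinone ansamycins such as 17-DMAG, had 674, 776 and 710 untreated and 572, 608 and 639 treated. The groups of Nqo1 did not overlap, but its value of -0.24 ± 0.084 missed the threshold (adjusted p = 0.0524) and passed it in 7 of the 16 alternatives other than the 1.2-fold requirement. The remaining lists held few calls. None of 59 respiratory chain genes passed edgeR's test, where 6 had an unadjusted p under 0.05 and DESeq2 called 1, and of 53 lysosome and autophagy genes 1 rose (1.89%) and 3 fell (5.66%, near the 4.35% of all genes). In that list 1 fell without untreated replicate 1, 0 rose without untreated replicate 2 or 3 or 17-DMAG replicate 1 or 2, and total-count scaling gave 0 rises and 5 falls.

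**Figure D4:**
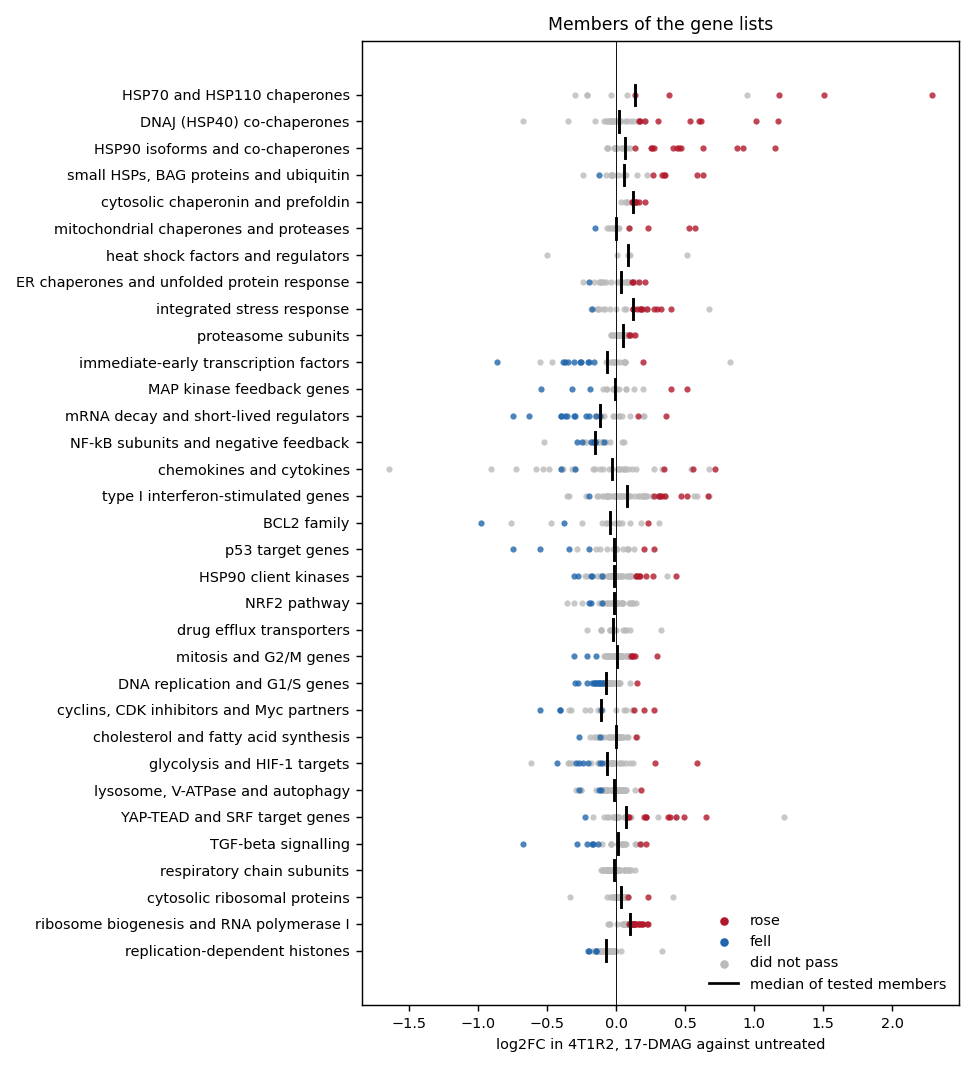
Log2 fold change in 4T1R2 (horizontal axis) of every tested member of 33 gene lists, with 1 dot per gene and a line at the list median. Medians run from -0.15 for NF-κB genes to 0.13 for HSP70 and HSP110 genes, and single chaperone members reach 2.29.

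Genes outside the lists also belonged to the largest changes. Prune2 (19:16955668-17223963) had 84.4, 110 and 115 normalized counts untreated and 243, 254 and 251 treated (log2FC 1.29 ± 0.12 SE, adjusted p = 3.97e-11). Fgfbp1, a carrier that releases fibroblast growth factors from the matrix, went from 244, 216 and 267 to 437, 447 and 427 (0.85 ± 0.10, adjusted p = 9.35e-08). Lbh, a transcription cofactor of mammary progenitors, went from 320, 291 and 290 to 502, 534 and 479 (0.75 ± 0.081, adjusted p = 7.07e-09), and Parp3, an ADP-ribosyltransferase of DNA break repair, rose by 0.71 ± 0.057 (adjusted p = 2.10e-12). These genes were picked among those whose treated and untreated libraries did not overlap, as were the falls that follow. Lpin1 (12:16535669-16653903), a phosphatidate phosphatase of lipid synthesis and a transcriptional co-activator, fell from 788, 863 and 767 to 490, 473 and 433 (-0.79 ± 0.074, adjusted p = 1.42e-10). Robo1, a receptor for the guidance factor Slit, went from 132, 133 and 103 to 84.3, 63.2 and 67.5 (-0.78 ± 0.17, adjusted p = 0.00169). Epn3, an epsin of endocytosis, fell by 0.63 (SE 0.12, adjusted p = 0.000213), and Mutyh, a DNA glycosylase of base excision repair, by 0.64 (SE 0.15, adjusted p = 0.00287).

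Some of the 15 largest rises and 15 largest falls missed the threshold with a library left out, among them Smad6, described above. For 2810029C07Rik (-0.84 ± 0.23, adjusted p = 0.0138) this was so without untreated replicate 1 (adjusted p = 0.0578), untreated replicate 2 (0.0716) or 17-DMAG replicate 1 (0.0683). Fat2, an atypical cadherin, rose by 0.68 ± 0.16 (adjusted p = 0.00424) but by 0.41 without untreated replicate 1 (adjusted p = 0.113). Gpr153, an orphan receptor, had -0.72 ± 0.18 (adjusted p = 0.00729) and -0.55 without 17-DMAG replicate 1 (adjusted p = 0.0846). For Ypel2 (-0.66 ± 0.22, adjusted p = 0.0399) the threshold was missed without untreated replicate 1 (adjusted p = 0.0734), untreated replicate 2 (0.238), 17-DMAG replicate 2 (0.162) or 17-DMAG replicate 3 (0.14). For Adgrg1, an adhesion receptor (-0.63 ± 0.19, adjusted p = 0.0268), it was missed without untreated replicate 1 (0.268), 17-DMAG replicate 1 (0.142) or 17-DMAG replicate 2 (0.0537).

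The same comparison in parental 4T1 cells asks whether the response of 4T1R2 differs from that of the cells it came from. In 4T1, 18.4% of the 13507 genes rose and 17.9% fell. Of the 835 genes that rose in 4T1R2, 630 (75.4%) also rose in 4T1, where they made up 25.3% of the rises, and 15 (1.80%) fell there. Of the 588 falls, 418 (71.1%) also fell in 4T1, 17.3% of the falls there, and 10 (1.70%) rose. The sizes differed. A test of the difference itself (response in 4T1R2 minus response in 4T1) was positive for 9.62% of genes and negative for 8.16%. Among the 835 rises it was called for 319, of which 265 were smaller in 4T1R2 and 54 larger. Among the 588 falls it was called for 260, of which 221 were smaller and 39 larger. The 2401 called differences over all genes became 1565 without 4T1 17-DMAG replicate 3, which leaves treated 4T1 with 1 sample. With total-count scaling the called differences over all genes were 76.8% positive rather than 54.1%.

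Chaperone genes carried this pattern without exception in direction. Of the 40 that rose in 4T1R2, 33 had a called difference from 4T1, and all 33 rose less in 4T1R2. Hspa1b rose by 2.29 in 4T1R2 and by 5.11 ± 0.049 in 4T1 (difference -2.81 ± 0.072, adjusted p = 4.75e-29). It stood at 675 ± 23.4 (SD, n = 3) normalized counts in untreated 4T1R2 and 490 ± 24.6 (SD, n = 3) in untreated 4T1, so that the treated level was 3302 ± 193 in the former and 16910 ± 236 in the latter (n = 2 for treated 4T1). Hsp90aa1 rose by 0.88 against 2.00 (difference -1.12, adjusted p = 2.43e-25), and Hspa8 by 1.51 against 2.32 (difference -0.81, adjusted p = 1.79e-21). Bag3 rose by 0.35 against 1.56 (difference -1.21, adjusted p = 8.44e-19). The integrated stress response list had 19 of 26 members with a smaller response in 4T1R2 and 0 with a larger one, at a median of 0.12 against 1.00 in 4T1. Over all genes the difference was negative for 8.16% and positive for 9.62%. Trib3, a pseudokinase induced by ATF4, was at 0.21 ± 0.075 in 4T1R2 (adjusted p = 0.0626) and rose by 2.71 in 4T1 (difference -2.50, adjusted p = 8.66e-21). Of the 37 proteasome subunits, 34 rose in 4T1 and 27 had a called smaller value in 4T1R2, and of 31 NRF2 pathway genes 16 rose in 4T1 and 14 had one. Over all genes, 18.4% rose in 4T1 and 8.16% had a negative difference.

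Falls showed the mirror image. Fos had a log2FC of -4.29 ± 0.24 in 4T1 and -0.86 in 4T1R2 (difference 3.42, adjusted p = 1.36e-12). Egr1 fell by 2.87 in 4T1 and was at -0.016 in 4T1R2 (difference 2.85, adjusted p = 4.74e-16), and Cxcl1 fell by 2.42 in 4T1 against -0.053 in 4T1R2 (difference 2.37, adjusted p = 3.07e-17). Of 26 NF-κB genes, 19 fell in 4T1 and 14 had a called positive difference, and of 53 G1/S genes 40 fell in 4T1 and 31 had a called positive difference. Over all genes, 17.9% fell in 4T1 and 9.62% had a positive difference. A few genes moved in opposite directions. In 25 genes a rise in 4T1R2 met a fall in 4T1 (15 genes) or a fall met a rise (10 genes). Cyr61 fell by 0.22 in 4T1R2 and rose by 0.70 in 4T1 (difference -0.92, adjusted p = 7.04e-16). Slc7a11 fell by 0.17 in 4T1R2 and rose by 2.33 in 4T1 (difference -2.50, adjusted p = 3.55e-27), and its untreated level was 6886 ± 285 normalized counts in 4T1R2 (SD, n = 3) against 535 ± 55.9 in 4T1. Lpin1 fell by 0.79 in 4T1R2 and was at 0.11 in 4T1 (adjusted p = 0.288), a called difference of -0.90 (adjusted p = 1.57e-08).

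The responses of the separately selected populations were closer to each other. In 4T1R1, 13.9% of genes rose and 14.3% fell. Of the 835 rises of 4T1R2, 646 (77.4%) rose in 4T1R1, 34.5% of the rises there, and 1 fell. Of the 588 falls, 413 (70.2%) fell in 4T1R1, 21.3% of the falls there, and 4 rose. The difference of responses (4T1R2 minus 4T1R1) was positive for 1.21% of genes and negative for 0.918%, and it depended on the scaling, since total-count scaling gave 61 positive and 611 negative genes in place of 164 and 124. The total of 288 was 177 without 4T1R1 17-DMAG replicate 1, 183 without 4T1R2 untreated replicate 2 and 155 without 4T1R2 17-DMAG replicate 3. Library identifiers of 4T1R1 form a separate run of numbers from those of 4T1 and 4T1R2, and handling apart cannot be told apart from the population. Where a difference was called, the response of 4T1R2 was mostly the smaller. That held for 48 of 55 rises and 42 of 60 falls, and for all 19 of the 40 chaperone genes with a called difference. The 40 had medians of 0.35 in 4T1R2, 0.58 in 4T1R1 and 0.85 in 4T1, and 33 of them stood in that order. A smaller fold change was not always a lower treated level. Mean normalized counts of Hspa4l went from 5008 to 8782 in 4T1R1 and from 7476 to 9756 in 4T1R2. Those of Hsp90aa1 went from 49210 to 130200 and from 69480 to 127800. Treated Hspa8 was lower in 4T1R2 (150600 against 192300). Treated levels were not tested between populations.

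Single genes showed both kinds of difference between the selected populations. Hspa1b rose by 3.22 in 4T1R1 against 2.29 in 4T1R2 (difference -0.93 ± 0.070, adjusted p = 1.54e-12), and Dnaja1 by 1.86 against 1.18 (difference -0.69, adjusted p = 2.50e-12). Rhob fell by 1.00 in 4T1R1 and by 0.40 in 4T1R2 (difference 0.60, adjusted p = 2.07e-08). Cxcl1 fell by 0.88 in 4T1R1 (adjusted p = 5.38e-16) and was at -0.053 in 4T1R2 (difference 0.83, adjusted p = 8.17e-10), and Csf3, the granulocyte growth factor, fell by 1.03 in 4T1R1 and was at -0.096 in 4T1R2 (difference 0.93, adjusted p = 3.34e-17). Of 35 chemokine and cytokine genes, 8 had a more positive response in 4T1R2 than in 4T1R1 and 1 a more negative one. Over all genes these shares were 1.21% and 0.918%. Prune2 rose more in 4T1R2 (1.29 against 0.62, difference 0.67, adjusted p = 0.00504), and Lpin1 fell more (-0.79 against -0.35, difference -0.44, adjusted p = 0.016). Cyr61, which fell in 4T1R2, rose by 0.32 in 4T1R1 (difference -0.54, adjusted p = 1.51e-08). Hspa5 rose in 4T1R2 and fell by 0.10 in 4T1R1 (difference 0.27, adjusted p = 5.44e-05).

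**Figure D5:**
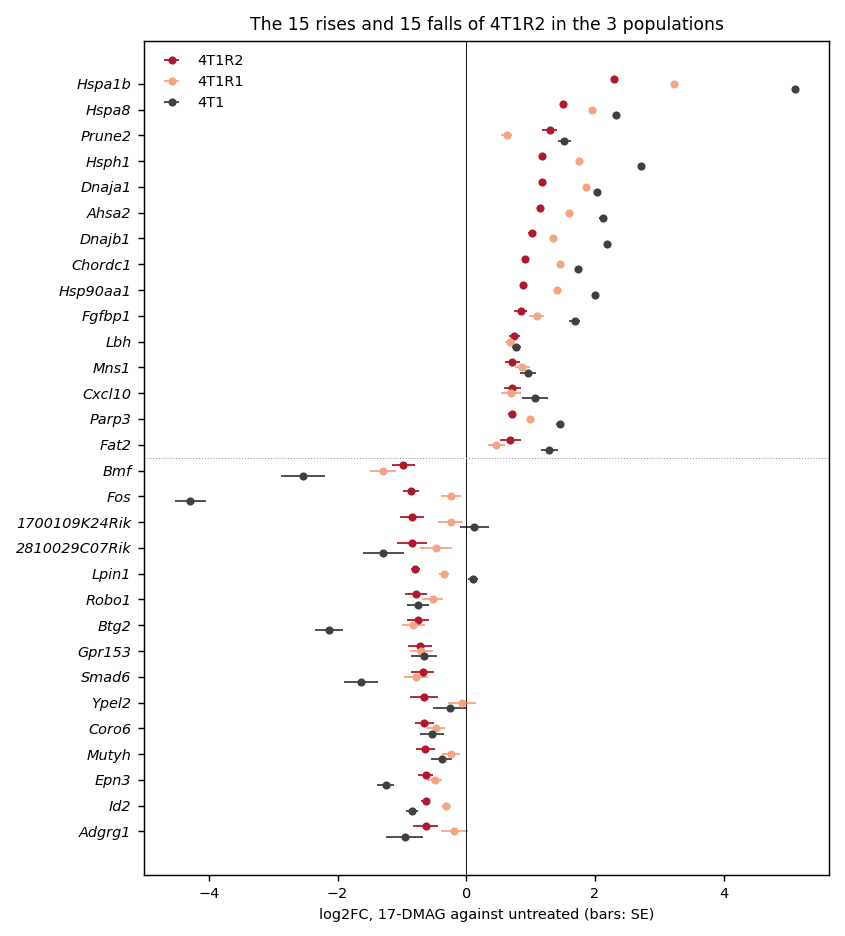
Log2 fold change (17-DMAG over untreated, horizontal axis) with its SE for the 15 largest rises and 15 largest falls of 4T1R2, in 4T1R2, 4T1R1 and 4T1. Chaperone genes lie in the order 4T1R2, 4T1R1, 4T1, as Hspa1b at 2.29, 3.22 and 5.11, and Fos falls furthest in 4T1 (-4.29).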

How the data were processed

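Raw counts per gene were used as the authors deposited them, as whole-number counts for 24421 genes in 18 libraries. Per the labels, total RNA was sequenced, reads were aligned with STAR and assigned with featureCounts (Subread 1.6.2) on mm10/GRCm38 after bcl2fastq 2.20. Strand use and the handling of reads with several matches are not given in the sources used here. Low counts were even more often than odd (69.1 to 70.4% of counts from 1 to 12 in the 4T1R2 libraries), as when both reads of a fragment are counted.

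Libraries were grouped by their titles. Counts were scaled by TMM, filtered by filterByExpr (13507 genes) and fitted with edgeR 4.0.16 (limma 3.58.1, R 4.3.3) by quasi-likelihood over 17 samples in 6 groups, with treated 4T1 replicates 1 and 2 averaged. Contrasts were treated minus untreated in each population and the differences between populations. P-values were adjusted by Benjamini-Hochberg over all genes tested at a threshold of 0.05, and a log2FC is given with its SE from the F statistic. Normalized counts are counts scaled to the mean TMM-adjusted library. Single-gene precision is set by the spread between 3 libraries a group at 23354461 to 35853025 counts (common biological coefficient of variation 0.0376). The edgeR fit and its calls were tested on simulated counts that held known changes. Figures were drawn with matplotlib 3.10.9.

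Genes named were the 15 largest changes each way with at least 100 normalized counts and no overlap, up to 4 passing members of each list each way, a fixed set of chaperone and signalling genes (1 of which is not reported here), and the 5 largest differences between populations each way. Any other gene is named with its value already known. The comparison and the gene lists were chosen with earlier results of these data known. Promoter windows and gene positions came from RefSeq tables for GRCm38.p6, matched by symbol (10095 of the genes tested had a window). Alternatives were other scalings, filters, DESeq2 1.42.0, a 1.2-fold requirement, a replicate block, thinned counts, 18 separate libraries, fits of the populations compared, and each library left out.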

Additional observations from a re-analysis of the deposited data

Results flagged for a closer look

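A test of the difference between the responses of 4T1R2 and 4T1 called 1299 genes with a positive and 1102 with a negative difference (edgeR quasi-likelihood test, Benjamini-Hochberg adjustment over 13507 genes, log2 scale throughout). The largest positive differences, in genes that fell much less in 4T1R2 or did not pass the test there, were those of Fos (3.42), Egr1 (2.85), Cxcl1 (2.37), Dll4 (2.27), a Notch ligand at -0.13 in 4T1R2 and -2.39 in 4T1, and Fosb (2.16). The largest negative differences were those of Tex14 (-3.23), at 14.4 to 22.2 normalized counts in untreated and 19.9 to 30.6 in treated 4T1R2 libraries, Hspa1b (-2.81), Slc7a11 (-2.50), Trib3 (-2.50) and Chac1 (-2.04).

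In Slc7a11 and in 8 other genes that passed the test in both populations the response of 4T1R2 went against that of 4T1 with a called difference of at least 0.5, and treated and untreated 4T1R2 libraries did not overlap. Angptl4 (difference 0.98), Nptx1 (0.62) and Hbegf (0.50) rose in 4T1R2 and fell in 4T1. Sqstm1 (-0.97), Cyr61 (-0.92), Gpr137b (-0.63), Insig1 (-0.59) and Inpp5k (-0.55) fell in 4T1R2 and rose in 4T1.

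The difference between the responses of 4T1R2 and 4T1R1 was called positive for 164 genes and negative for 124. The largest positive ones were those of Grap (1.18), Lipt2 (0.96), Csf3 (0.93), Snord49b (0.89) and Ccl2 (0.88), and the largest negative ones those of Hspa1b (-0.93), Gm5141 (-0.82), Spaca6 (-0.80), E130311K13Rik (-0.75) and Perm1 (-0.71). Csf3 and Ccl2, a granulocyte growth factor and a monocyte chemokine, were at -0.096 and 0.33 in 4T1R2 (adjusted p = 0.0662 and 0.135) and fell by 1.03 and 0.55 in 4T1R1.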

How the results depend on the processing

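Against 835 rises and 588 falls, total-count scaling gave 365 and 1146, a required change of 1.2-fold 49 and 10, and leaving out a library 562 to 779 and 367 to 581. Differences from 4T1 (2401 genes) became 537 with that requirement and 1565 to 2313 with a library left out. Differences from 4T1R1 (288 genes) became 672 with total-count scaling (185 shared), 449 with no filter, 20 with the requirement and 155 to 403 with a library left out. DESeq2 gave 886 rises and 616 falls. The requirement reduces calls by construction, and leaving out a library raised some counts and lowered others; the cause of these and the other moves was not tested.

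Same-numbered libraries did not deviate together (r = 0.020, 0.043 and -0.019, beside -0.076 to 0.055 for differently numbered ones). Such small values cannot show whether the cultures were handled in pairs, and the main fit used no pairing. A replicate block gave 860 rises, 615 falls, and 2849 and 329 differences from 4T1 and 4T1R1.

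Values near 0 changed sign: Hsf1 to -0.040 (total-count scaling), -0.006 (thinned counts), Egr1 to 0.036 (thinned) and Abcb1b to 0.004 (no filter) and 0.003 (without Rn45s). With libraries left out the ranges were -0.012 to 0.028 for Hsf1, -0.046 to 0.044 for Egr1, -0.099 to 0.019 for Cxcl1 and -0.008 to 0.014 for Abcb1b. Of 158 named genes that passed the test, 99 kept their call in the 16 alternatives other than the 1.2-fold requirement. With 3 libraries a group, small changes of genes with few counts were not detectable.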

Other observations

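Further genes past the threshold in 4T1R2, outside the lists and named here after their values were seen, included regulators of RNA, lipids and hormones. Igf2bp1, an oncofetal mRNA-binding protein, had 1603, 1519 and 1711 normalized counts untreated and 2429, 2301 and 2473 treated (log2FC 0.57 ± 0.044 SE, adjusted p = 4.01e-13). Cacybp, a partner of the SIAH1 ubiquitin ligase, rose from 5635, 5237 and 5302 to 8256, 8267 and 7631 (0.58 ± 0.045, adjusted p = 6.72e-13), and Epha4, an ephrin receptor, rose by 0.62 ± 0.073 (adjusted p = 6.14e-08). Cpt1a, the rate-limiting carnitine palmitoyltransferase of mitochondrial fatty acid oxidation, fell from 3202, 3465 and 3092 to 2375, 2320 and 2398 (-0.46 ± 0.044, adjusted p = 3.03e-10). Cyp1b1, a cytochrome P450 that hydroxylates oestrogens and is induced through the aryl hydrocarbon receptor, fell from 2798, 2688 and 2691 to 1873, 2065 and 2046 (-0.45 ± 0.048, adjusted p = 3.34e-09). Pnrc1, a nuclear receptor co-activator, fell by 0.52 (SE 0.059, adjusted p = 1.59e-08). In 4T1 the changes were 1.19 for Igf2bp1, 1.07 for Cacybp, 0.47 for Epha4, -0.98 for Cpt1a, -1.70 for Cyp1b1 and -1.01 for Pnrc1, each in the same direction as in 4T1R2.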
